A study of Homo sapiens with 6 samples.

Results

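The genes described here belong to families named for histone lysine methylases and demethylases, enzymes that add methyl groups to histone lysines or remove them. They were chosen by symbol: the KMT2, SETD and KDM gene families together with named methylases such as EZH2, NSD1 and DOT1L and the demethylase PHF8, with KDM5D left out. The rule found 54 of the 23013 genes in the table, and all 54 were among the 16513 genes tested, those with a mean of at least 10 normalised counts. Of the 54, 33 were grouped by symbol as methylase genes and 18 as demethylase genes, which does not show that each protein has that activity. The other 3 were antisense RNA genes that carry the symbol of an enzyme gene (SETD5-AS1, KDM4A-AS1 and KMT2E-AS1).

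The RNAs were measured by native RNA immunoprecipitation and sequencing (RIP-seq) of ORC1, the subunit of the origin recognition complex that sits on chromatin before DNA replication starts. The cells were untreated, asynchronous HCT116, an established human colorectal cancer line. The groups were 3 inputs, which are RNA of the nuclear lysate with no antibody, and 3 immunoprecipitates with an antibody against ORC1 (ORC1 IPs). All 6 libraries came from sonicated nuclear lysate, were treated with DNase and were depleted of ribosomal RNA. No libraries with a control antibody were analysed here. On their own these 6 libraries therefore do not separate RNA bound by ORC1 from RNA held by the beads or the antibody. The study reports that RNA from its control IgG was below detection. It also reports that most RNAs found with Flag-tagged ORC1 were shared with those of the endogenous protein. Neither point was examined here. The study describes triplicate experiments, but the labels do not say that these were separate cultures. The p-values therefore measure the spread between these libraries, which may be technical.

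Methyl groups on histone lysines mark chromatin states. Methylation of H3K4 and H3K36 accompanies active genes, that of H3K9 and H3K27 accompanies silent ones, and H4K20 methylation is tied to the cell cycle and is recognised by ORC1 itself through its BAH domain. Each mark has its own writers, mostly proteins with a SET domain, and its own erasers, the flavin-dependent KDM1 enzymes and the larger Jumonji family of KDM demethylases.

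Whole reads recovered on genes ranged from 13703033 to 17248924 in the inputs and from 25134156 to 36008733 in the ORC1 IPs, with a median of 1189 reads per member and library. In 8 of the 54 genes at least 1 library had under 100 reads, and the values of these genes are less precise. The epithelial keratins and EPCAM were present in all libraries, with a sum over 6 epithelial markers of 47501 to 138181 normalised counts in inputs and 16574 to 144917 in ORC1 IPs, although VIL1 was near 0. Of 9 markers of blood, endothelial and connective tissue cells only COL1A1 and VWF were in the table, with sums of 169 to 317 in inputs and 442 to 824 in ORC1 IPs. In bulk libraries fewer cells of a type and less RNA per cell cannot be told apart. ORC1 IP 2 stood apart from ORC1 IPs 1 and 3, and results that rest on it are given with and without it.

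Histone lysine methylase and demethylase RNAs took a larger share of all counts in the ORC1 IPs than in the inputs. Inputs 1, 2 and 3 gave them 0.480%, 0.414% and 0.388%, and ORC1 IPs 1, 2 and 3 gave 0.912%, 0.652% and 0.938%, so that the lowest ORC1 IP was above the highest input. The log2 fold change of ORC1 IP over input, on the scale of log2(normalised count + 1), was above 0 for 44 of the 54 genes, against 50.7% of all genes tested. Its median was 0.54, against 0.01 for all genes tested. Under scaling by total count the median of all genes moved to -0.19 and that of the 54 genes to 0.32, so the distance between them was similar on both scales.

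At an adjusted p under 0.05 in limma (Benjamini-Hochberg over all genes tested), 7 of the 54 genes were called higher in ORC1 IP, where 2.28% of all genes tested were called higher. These were KMT2C, KMT2E, SETD2, SETD5, SETD8, KDM6B and EZH1. None of the 54 was called lower, where 1.42% of all genes tested were. An unadjusted p under 0.05 in limma, in either direction, was found in 16 of the 54 and in 3575 of the 16513 genes tested. On the recovered reads edgeR called 6 of the 54 higher (2.57% of all genes tested), all but SETD5 of the 7, and DESeq2 called 14 (7.67%). Neither called any of them lower, where they called 1.31% and 4.35% of all genes tested lower. The cutoff that the study used for enriched RNAs asks for an unadjusted p under 0.05 and a log2 fold change above 1. The study applied it to DESeq2 values, whereas limma values were used here. On these, 14 genes were higher (10.9% of all genes tested) and 1 gene, SMYD5, was lower (7.25%). At the same cutoff 19 genes were higher in edgeR and 21 in DESeq2, where the shares of all genes tested were not counted. In 17 of the 54 genes all ORC1 IPs exceeded all inputs, against 12.7% of all genes tested. In 2 genes, SETD7 and SMYD5, all ORC1 IPs lay below all inputs, against 13.5%.

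The calls divided unequally between genes grouped as methylases and those grouped as demethylases, although the difference between these kinds was not tested. The called methylase genes include KMT2E and SETD5, whose own methylase activity is not established. Of 33 methylase genes, 6 were called higher (18.2%), 13 passed the cutoff of the study (39.4%) and 15 had all ORC1 IPs above all inputs (45.5%). Their median log2 fold change was 0.89. Of 18 demethylase genes, 1 was called higher (5.56%) and the same gene alone passed the cutoff of the study (5.56%). In 2 of the 18 all ORC1 IPs were above all inputs (11.1%), and the median was 0.41. The shares of all genes tested were 2.28% called higher, 10.9% past the cutoff and 12.7% with all ORC1 IPs above all inputs. The last 2 shares were not exceeded by the demethylase genes. Without ORC1 IP 2, 18 of the 33 methylase genes and 5 of the 18 demethylase genes were called higher, where 11.9% of all genes tested were. Their median log2 fold changes were then 1.39 and 0.89. The antisense genes had log2 fold changes from -0.51 to 0.45, and none was called.

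**Figure D1:**
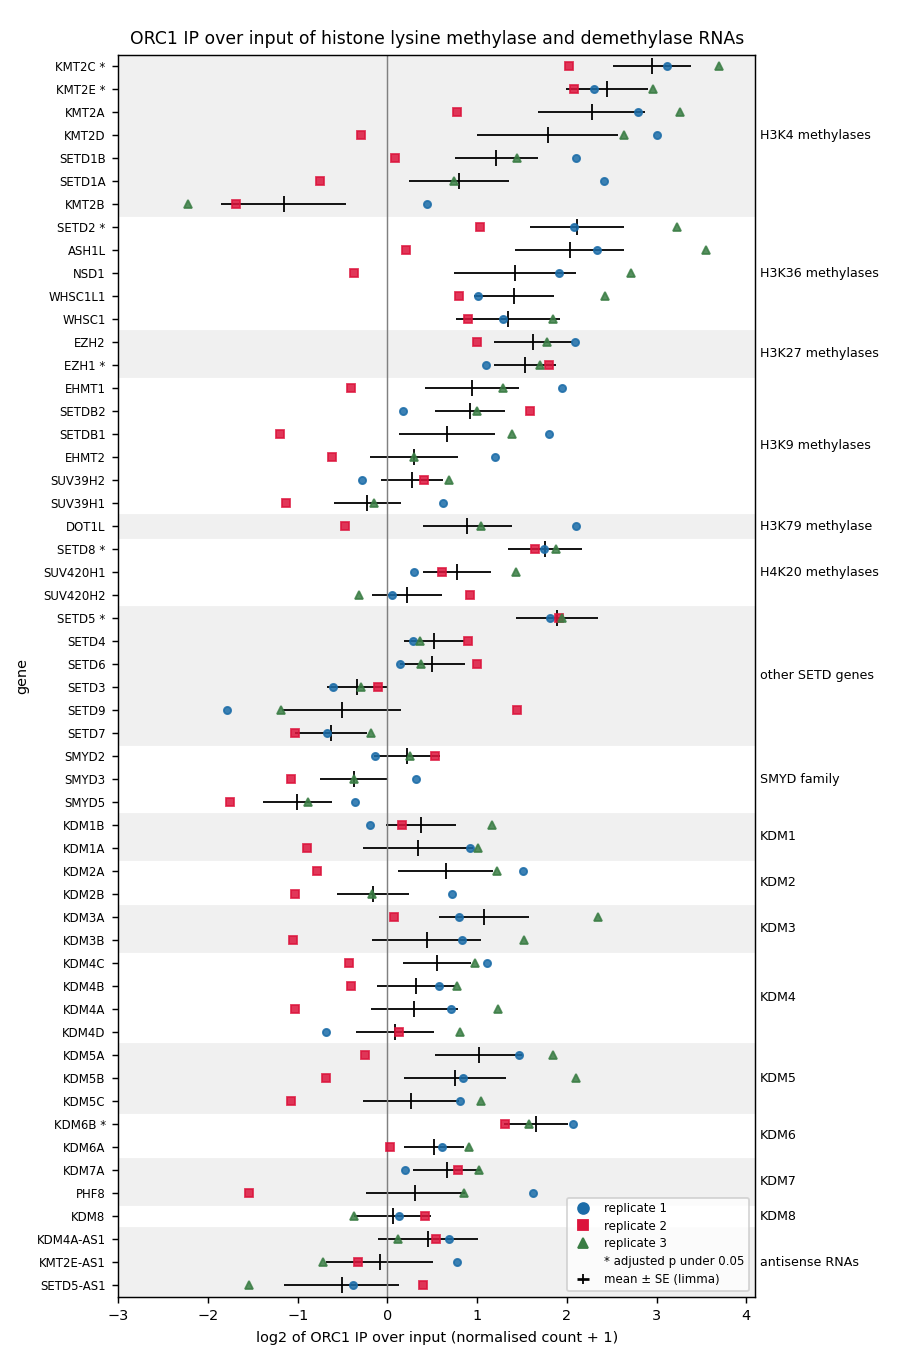
Log2 ratio of ORC1 IP over input (horizontal axis, normalised count + 1) for the 54 genes, grouped by the lysine or family they act on. Coloured symbols are the ORC1 IP over the input of the same replicate number, black ticks with bars are the mean ± SE of limma over 3 against 3 libraries, and asterisks mark the 7 called genes. Replicate 2 lies left of replicates 1 and 3 for most H3K4 methylases and demethylases.

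The H3K4 methylases of the KMT2 and SETD1 family held the largest log2 fold changes of the 54 genes. KMT2C (ENSG00000055609), which with KMT2D monomethylates H3K4 at enhancers, had 1026, 946 and 611 normalised counts in the inputs against 8929, 3861 and 7931 in ORC1 IPs 1, 2 and 3. Every ORC1 IP was above every input, and ORC1 IP 2 was the lowest of the ORC1 IPs. The mean was 861 ± 220 over the inputs and 6907 ± 2685 over the ORC1 IPs (SD, n = 3 each), and the log2 fold change was 2.95 ± 0.44 (SE; adjusted p = 0.00806, limma), rank 48 of all genes tested. It was 3.32 without ORC1 IP 2.

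KMT2C lies on chr7:152134922-152436644 on the minus strand (GENCODE v44, GRCh38), and its longest transcript has 59 exons. The primer pair designed by the study for this RNA is shown because it fixes a piece of the transcript that was assayed on its own. Both are printed in lower case throughout, since each matched its site in full.
KMT2C forward: accacgaaaacaaagaggaca
KMT2C reverse: tgggtgcttacacttacacaaga
The forward primer matched exon 4 (chr7:152315144-152315164) and the reverse primer exon 5 (chr7:152311896-152311918), both in the coding sequence, with an amplicon of 78 bases in the spliced transcript. The counts above are over the whole gene and do not separate this piece from the rest. Of the 50-base stretches of KMT2C, 6.89% also occurred in another gene, so a small part of its reads could belong elsewhere.

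KMT2E, which has a SET domain and binds methylated H3K4 but is not known as an active methylase, had 1167, 673 and 406 normalised counts in the inputs against 5743, 2854 and 3177 in ORC1 IPs 1, 2 and 3. All ORC1 IPs were above all inputs, with a log2 fold change of 2.45 ± 0.46 (adjusted p = 0.0174). KMT2A, the MLL gene of leukaemia translocations, had 3446, 5283 and 2642 in inputs against 23919, 9033 and 25344 in ORC1 IPs. The groups did not overlap, but the spread among ORC1 IPs was wide, and the log2 fold change of 2.28 ± 0.59 missed the threshold (adjusted p = 0.0545 in limma, 0.0524 in edgeR and 0.000132 in DESeq2). Of the 50-base stretches of KMT2A, 21.4% were shared with another annotated gene, which leaves its counts uncertain.

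KMT2D depended on 1 library. It had 5766, 5502 and 4344 normalised counts in the inputs against 46425, 4485 and 27043 in ORC1 IPs 1, 2 and 3. ORC1 IPs 1 and 3 were far above every input, whereas ORC1 IP 2 lay within the range of the inputs. The log2 fold change was 1.78 ± 0.79 with all libraries (adjusted p = 0.210, limma) and 2.78 without ORC1 IP 2 (adjusted p = 0.000856). SETD1B (1.21 ± 0.46) and SETD1A (0.80 ± 0.56), the catalytic subunits of the SETD1 complexes, were positive and not called. KMT2B went the other way at very low levels, with 7.39, 28.4 and 17.6 normalised counts in inputs against 10.4, 8.13 and 2.98 in ORC1 IPs (log2 fold change -1.16 ± 0.70, adjusted p = 0.364). GENCODE v44 does not hold the identifier of KMT2B, so it has no length or sequence here. Its counts may therefore not give the level of the KMT2B mRNA, and the groups overlapped.

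**Figure D2:**
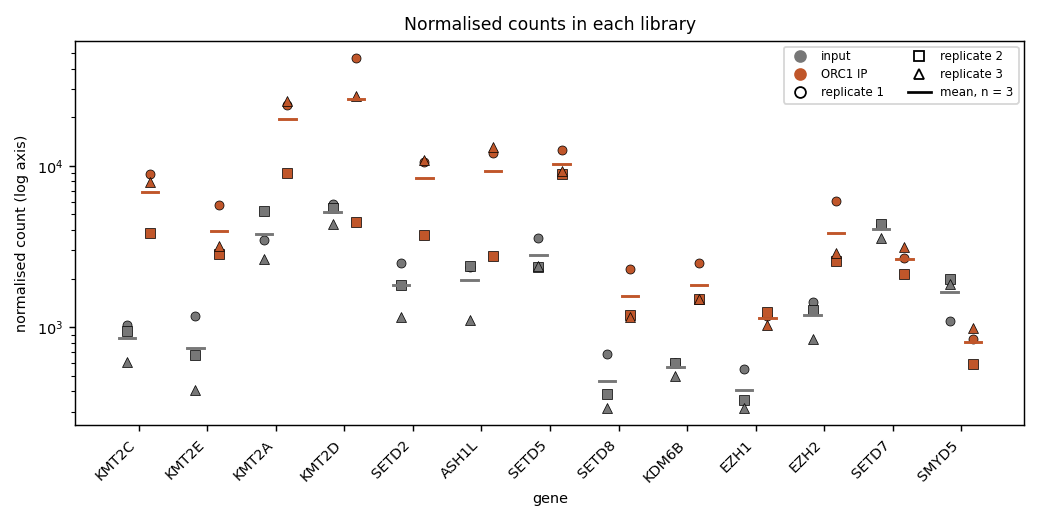
Normalised counts (vertical log axis) of 13 genes in each library: inputs in grey, ORC1 IPs in orange, symbols by replicate, short lines at the mean of 3. The ORC1 IPs of KMT2C, KMT2E and EZH1 sit above all inputs, ORC1 IP 2 of KMT2D sits among the inputs, and those of SETD7 and SMYD5 sit below all inputs.

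The 5 H3K36 methylases all had positive log2 fold changes, from 1.35 to 2.11 with a median of 1.42. Their median transcript length was 10768 nt. In 4 of the 5 all ORC1 IPs exceeded all inputs, against 12.7% of all genes tested and 25.8% of those with a transcript of 8000 nt or more. Of the 5, 1 was called higher, against 2.28% of all genes tested. That gene was SETD2, the enzyme that trimethylates H3K36 in transcribed gene bodies. It had 2495, 1822 and 1163 normalised counts in inputs against 10584, 3716 and 10888 in ORC1 IPs, without overlap. Its log2 fold change was 2.11 ± 0.52 (adjusted p = 0.0472), and the call was lost with the replicate number as a block (adjusted p = 0.0531).

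ASH1L, a dimethylase of H3K36, came close in size but was not called. It had 2371, 2410 and 1113 in inputs against 11994, 2774 and 13023 in ORC1 IPs, the groups being separated only by the gap between input 2 and ORC1 IP 2. The log2 fold change was 2.03 ± 0.61 (adjusted p = 0.0806, and 0.000883 without ORC1 IP 2). Of the NSD dimethylases, WHSC1L1 (1.41 ± 0.45) and WHSC1 (1.35 ± 0.58) had all ORC1 IPs above all inputs. NSD1 did not, with 3502 normalised counts in ORC1 IP 2 beside 17666 and 22567 in ORC1 IPs 1 and 3 and 3425 to 4693 in the inputs.

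Both H3K27 methylases, the catalytic subunits of Polycomb repressive complex 2 (PRC2), were higher in every ORC1 IP than in any input, as were 12.7% of all genes tested. EZH1, the form common in resting cells, had 551, 355 and 317 normalised counts in inputs against 1179, 1235 and 1031 in ORC1 IPs. ORC1 IP 2 was the highest of the 3 here, and the ORC1 IPs differed little. This gave a log2 fold change of 1.53 ± 0.35 (adjusted p = 0.0352). EZH2, the form of dividing cells, had 1429, 1286 and 840 in inputs against 6092, 2560 and 2889 in ORC1 IPs. Its log2 fold change of 1.62 ± 0.44 was of similar size, but the adjusted p was 0.0588.

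Among the 3 writers of H4K20, SETD8 alone was called, and the others had smaller positive values. SETD8 (KMT5A in GENCODE v44), which places the first methyl group during the cell cycle, had 686, 383 and 316 normalised counts in inputs against 2297, 1197 and 1160 in ORC1 IPs. The groups did not overlap, and the log2 fold change was 1.75 ± 0.41 (adjusted p = 0.0394). Of its 50-base stretches 25.2% occurred in other genes, so its reads cannot all be assigned with certainty. SUV420H1, which adds further methyl groups, had 913, 556 and 420 in inputs against 1118, 846 and 1137 in ORC1 IPs. The groups overlapped, since input 1 exceeded ORC1 IP 2, and the log2 fold change was 0.78 ± 0.38 (adjusted p = 0.255). SUV420H2, of similar function, had 188, 189 and 297 in inputs against 195, 359 and 238 in ORC1 IPs, and the groups overlapped, since input 3 exceeded ORC1 IPs 1 and 3. Its log2 fold change was 0.22 ± 0.39 (adjusted p = 0.794) and -0.028 without ORC1 IP 2.

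SETD5, a SET domain protein whose own methylase activity is debated, was called among the remaining SETD genes. It had 3573, 2370 and 2405 normalised counts in inputs against 12579, 8910 and 9257 in ORC1 IPs. All ORC1 IPs exceeded all inputs, with a log2 fold change of 1.89 ± 0.46 (adjusted p = 0.0455, 0.0521 in edgeR and 0.0951 with the replicate block). The RNA gene named after it, SETD5-AS1 (THUMPD3-AS1 in GENCODE v44), had 257, 405 and 178 in inputs against 197, 535 and 60.4 in ORC1 IPs. It overlapped between groups, with a log2 fold change of -0.51 ± 0.64 (adjusted p = 0.696).

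Beside KMT2B and SETD5-AS1, the most negative log2 fold changes were those of SMYD5, SETD7 and SETD9, none of them called. SETD7, a monomethylase of H3K4 and of many non-histone proteins, had 4278, 4388 and 3565 normalised counts in inputs against 2672, 2146 and 3143 in ORC1 IPs. SMYD5 had 1093, 1998 and 1842 in inputs against 850, 590 and 996 in ORC1 IPs. Both had all ORC1 IPs below all inputs, with log2 fold changes of -0.63 ± 0.40 (adjusted p = 0.391) and -1.0 ± 0.38 (adjusted p = 0.148). SETD9 had 58.0, 44.1 and 57.3 in inputs against 16.1, 122 and 24.6 in ORC1 IPs, so that ORC1 IP 2 was the highest library and the other ORC1 IPs the lowest. Its log2 fold change of -0.51 ± 0.66 (adjusted p = 0.706) was 0.083 in edgeR and 0.050 in DESeq2.

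The 6 H3K9 methylases and the H3K79 methylase DOT1L had no call. The H3K9 group had a median log2 fold change of 0.48, from -0.22 for SUV39H1, a founder of heterochromatin silencing, to 0.94 for EHMT1, the partner of EHMT2 in dimethylation of H3K9. SETDB2 alone of them had all ORC1 IPs above all inputs, at 93.0 to 143 normalised counts in inputs and 162 to 281 in ORC1 IPs. DOT1L, the only known H3K79 methylase, had a log2 fold change of 0.89 ± 0.49 (adjusted p = 0.322).

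Among the 18 demethylases the H3K27 demethylase KDM6B was the single call. It had 598, 604 and 500 normalised counts in inputs against 2516, 1495 and 1495 in ORC1 IPs. The groups were well separated, with a log2 fold change of 1.65 ± 0.35 (adjusted p = 0.0292). Its relative KDM6A had all ORC1 IPs above all inputs with a smaller log2 fold change of 0.51 ± 0.33 (adjusted p = 0.402), at 563 to 739 in inputs and 754 to 1056 in ORC1 IPs.

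In 14 of the 18 demethylases, KDM6B and KDM6A included, ORC1 IPs 1 and 3 both exceeded all inputs, against 26.0% of all genes tested. In 8 of these 14 ORC1 IP 2 lay below all inputs, against 7.41% of all genes tested with both features. Per-replicate medians of the log2 ratio over the 18 genes were 0.81, -0.42 and 1.03 in replicates 1, 2 and 3. One of the 8 was KDM1A, the founding lysine demethylase, which acts on H3K4 within the CoREST complex. It had 6402, 5234 and 5711 normalised counts in inputs against 12152, 2807 and 11468 in ORC1 IPs. PHF8, an eraser of H3K9 and H4K20 methylation, had 1110, 1844 and 1355 in inputs against 3430, 633 and 2440 in ORC1 IPs. In both genes the lowest of the 6 libraries was an ORC1 IP, with the other ORC1 IPs above all inputs. The adjusted p was 0.793 in both, and 0.0552 for KDM1A and 0.0523 for PHF8 without ORC1 IP 2. KDM8 was the gene nearest to no change (0.06 ± 0.43, adjusted p = 0.954), at 74.9 to 109 normalised counts in inputs and 76.8 to 146 in ORC1 IPs.

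Over the whole group of 54, ORC1 IPs 1 and 3 above all inputs with ORC1 IP 2 below all of them was seen in 12 genes, 8 demethylases and the methylases EHMT1, EHMT2, SETD1A and SETDB1. In 39 genes ORC1 IP 2 was below the mean of ORC1 IPs 1 and 3 on the log2 scale (50.3% of all genes tested), in 24 of them by more than 1 unit (20%). ORC1 IP 2 was below every input in 17 genes (38.2% of all genes tested), ORC1 IP 1 in 4 (35.6%) and ORC1 IP 3 in 8 (32.0%), so that for ORC1 IP 2 the share was near that of all genes. Over all 54 genes the median log2 ratios were 0.82, 0.08 and 1.03 in replicates 1, 2 and 3, against -0.01, 0.01 and 0.05 for all genes tested. The ratio was positive in all 3 replicates in 21 genes (19.8% of all genes tested), the 7 called genes among them, and negative in all 3 in SETD3, SETD7 and SMYD5 (19.2%). These per-replicate values rest on the replicate numbers in the labels, which the limma test did not use. The library titles pair inputs and ORC1 IPs in the same way. Same-numbered libraries tended to deviate from their group means in opposite directions in replicates 1 and 2 (r of -0.32 and -0.24 across genes). These correlations cannot show whether the pairing is right, which was not tested.

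Without ORC1 IP 2, 23 of the 54 genes were called higher and none lower in limma, where 11.9% and 6.38% of all genes tested were called, and the median log2 fold change was 0.91. All 7 genes named above stayed called. The 16 added genes were KMT2A, KMT2D, SETD1A and SETD1B, the H3K36 methylases ASH1L, NSD1, WHSC1L1 and WHSC1, then EZH2, EHMT1, SETDB1 and DOT1L, and the demethylases KDM3A, KDM5A, KDM5B and KDM2A. At the cutoff of the study 26 genes were then higher (15.7% of all genes tested) and 2 lower (9.86%). What set ORC1 IP 2 apart was not tested. Leaving out another library instead reduced the calls, to 4 without input 1 (2.44% of all genes tested), 1 without input 2 (0.291%), 0 without input 3 (0.0363%), 2 without ORC1 IP 1 (1.19%) and 1 without ORC1 IP 3 (0.145%). The calls numbered 5 with the replicate number as a block (2.62%), 4 under scaling by total count (0.527%) and 3 in limma without an intensity trend (0.866%). KMT2C was called in 18 of 20 alternative fits, KMT2E in 15 and SETD5 in 9, and all 7 called genes had a positive log2 fold change in all 20.

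**Figure D3:**
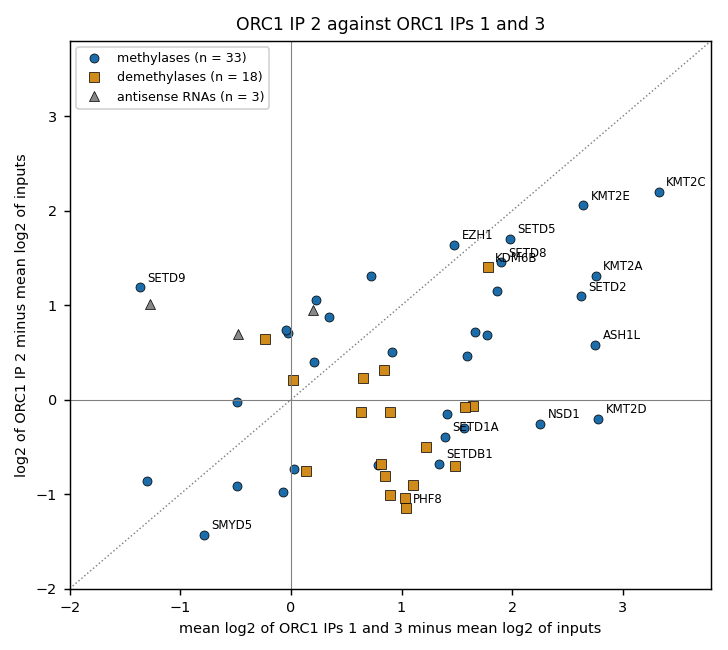
Log2 of ORC1 IP 2 minus the mean log2 of the 3 inputs (vertical axis) against the mean log2 of ORC1 IPs 1 and 3 minus the same inputs (horizontal axis), 1 point per gene, with a dotted line of equality. In 39 of 54 genes the point lies below the line; KMT2C and KMT2E are positive on both axes, whereas KMT2D and NSD1 are near 0 on the vertical axis only.

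The enzymes of this group have long transcripts, and the log2 fold change followed length. The longest annotated transcript had a median of 6203 nt in the 53 genes with a GENCODE match, against 3283 nt for all genes tested. Spearman's rho between log2 fold change and transcript length was 0.69 over the 53 genes and 0.34 over all 16062 genes with a match, as a description across genes that share the same libraries. By replicate it was 0.61, 0.10 and 0.75 over the 53 genes. The shortfall of ORC1 IP 2 against ORC1 IPs 1 and 3 was also larger in longer transcripts (rho of -0.57 over the 53 genes, -0.18 over all). With GC content rho was -0.12 over the 53 genes, and 0.27, -0.38 and -0.18 in replicates 1, 2 and 3.

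All 14 genes with a transcript of 8000 nt or more, a limit chosen after the values were seen, had a positive log2 fold change, with a median of 1.38, and 8 of the 14 passed the cutoff of the study. Of all genes tested of that length 25.5% passed it, with a median of 0.57. Of the 14 genes, 2 were called higher (14.3%), where 6.85% of all genes tested of that length were. The 39 shorter genes had a median of 0.34, 6 passed (15.4%) and 5 were called (12.8%), whereas shorter genes among all tested had a median of -0.043, with 9.52% past the cutoff and 1.86% called higher. The 5 called ones included SETD8 with 2776 nt and EZH1 with 4633 nt. When length and GC content were fitted out of each library, 1 call remained, KMT2C with a log2 fold change of 2.18 (adjusted p = 0.0272), where 0.56% of all genes tested were called higher. With a replicate block added to that correction none was called, nor was any other gene higher (0.0%). Without the block the adjusted p of the other 6 ran from 0.0603 for KMT2E to 0.0777 for SETD2. Their log2 fold changes under the correction were 1.90 for SETD8, 1.47 for EZH1, 1.48 for KDM6B, 1.61 for SETD5, 1.92 for KMT2E and 1.59 for SETD2, so that SETD8 was higher than before and the others lower. The part of transcript length in the other results was not tested.

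**Figure D4:**
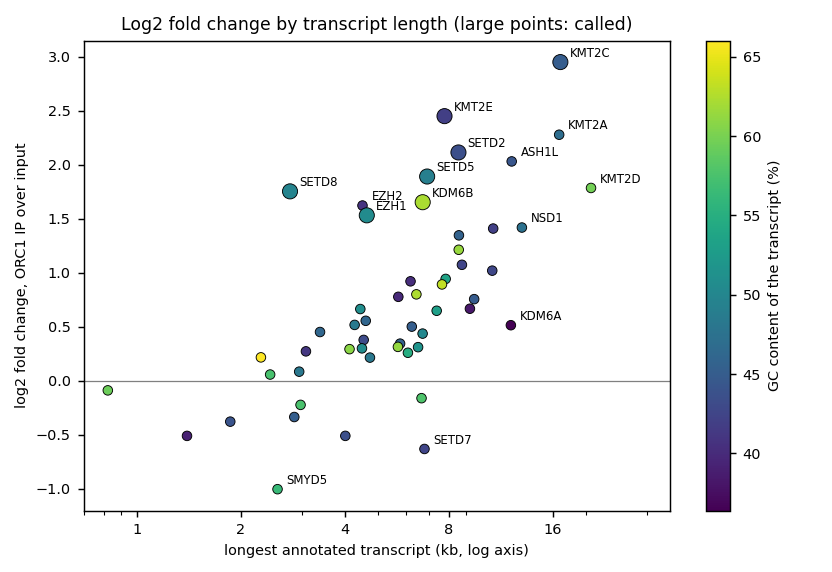
Log2 fold change of ORC1 IP over input (vertical axis) against the length of the longest annotated transcript in kb (horizontal log axis) for 53 genes, coloured by GC content, with large points for the 7 called genes. The 14 genes of 8 kb or more are all above 0; SETD8 and EZH1 are called at shorter lengths, and SETD7 is below 0 at 6808 nt.

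GAA repeats are a sequence feature that the study looked at in RNAs bound by ORC1. A tandem of at least 3 GAA units (GAAGAAGAA, searched on the transcript strand only) occurred in the longest transcript of 18 of the 53 genes (34.0%), against 12.9% of all genes tested. Per kb of transcript the rates were closer, at 0.0566 and 0.0407 tandems. The median log2 fold change was 1.05 with a tandem and 0.45 without, and over all genes tested it was 0.59 with and -0.061 without. In the 53 genes the transcripts with a tandem were longer, with a median of 7584 nt against 5718 nt. The tandem of WHSC1L1 was not placed. Among the other genes, 13 had a tandem in the coding sequence with a window of 30 bases around it also inside. Windows of 30 bases are shown for the called genes that have one and for KMT2A, KMT2D and NSD1, with the GAA tandem in capitals, so that called genes and genes not called can be compared.
KMT2E: aacaagctctgGAAGAAGAAaattcagcaa
SETD2: ccgacccctGAAGAAGAAGAAaatgaggca
EZH1: aacccctcacaGAAGAAGAAaagaaagcac
KMT2A: aaacccacaaaGAAGAAGAAagtctggatc
KMT2D: gaaggggatgaGAAGAAGAAgcaacagcgg
NSD1: agcttatagatGAAGAAGAAtgcagagctc
The KMT2E window is at chr7:105105869-105105898 on the plus strand, that of EZH1 at chr17:42709848-42709877 on the minus strand, that of KMT2D at chr12:49043919-49043948 on the minus strand and that of NSD1 at chr5:177282493-177282522 on the plus strand (GRCh38), each within 1 coding exon. The windows of SETD2 and KMT2A cross an exon junction and have no unbroken position in the genome. KMT2C, with the largest log2 fold change, had no such tandem, nor had SETD5, SETD8 or KDM6B. Of the 7 called genes 3 had a tandem, and of the 46 others with a match 15 had one.

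Input levels per kilobase of the longest transcript did not order the genes as the log2 fold change did. KDM1A had the highest input level, 999 ± 101 normalised counts per kb (SD, n = 3), followed by KDM3B (813 ± 71.9), EHMT2 (749 ± 129) and WHSC1 (744 ± 148), where KDM1A and KDM3B did not meet within 1 SD and the other neighbours among these 4 did. The median over the 53 genes was 161. The order depends on the transcript taken: with the median transcript length in place of the longest, KDM3B, KDM2A, KMT2D and KDM5A came first and KMT2C was at rank 44. With the longest, KMT2C was at rank 47 of 53 with 51.0 ± 13.1 in inputs and reached 410 ± 159 in ORC1 IPs. KMT2E (96.2 ± 49.6), EZH1 (88.0 ± 27.1) and KDM6B (84.3 ± 8.70) were also low in inputs, while SETD5 (401 ± 98.8) was at rank 10. The lowest level was that of KDM4A-AS1, at 7.20 ± 2.24.

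Partners that sit in complexes with these enzymes were counted in the same fit. Of 35 genes for complex partners 1 was called higher (2.86%, against 2.28% of all genes tested) and none lower in limma, 9 passed the cutoff of the study (25.7%, against 10.9%), and the median log2 fold change was 0.18. The called gene was PHF21A, a CoREST component that binds unmethylated H3K4, with 551, 142 and 229 normalised counts in inputs against 964, 1739 and 699 in ORC1 IPs. The groups did not overlap, and the log2 fold change was 2.01 ± 0.50 (adjusted p = 0.0480). Without ORC1 IP 2, 10 of the 35 partner genes were called higher, where 11.9% of all genes tested were, and their median was 0.50. Among 12 subunits of 1 or more of the KMT2 and SETD1 complexes, 8 had negative values. The range was from DPY30 (-0.83) to the chromatin tether PSIP1 (1.80), with a median of -0.10. The 6 enzymes of those complexes, KMT2E left out and KMT2B included, had a median of 1.5. However, the transcripts of the 5 with a match were far longer, with a median of 16725 nt against 3364 nt for the subunits. The partners of EZH2 in PRC2 ran from PHF19 (-0.38) to the core subunit SUZ12 (1.54), those of H3K9 methylation from TRIM28 (-0.48) to ATF7IP (1.83), and those of KDM1A from RCOR2 (0.01) to PHF21A.

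Other enzymes of histone modification served as a further comparison. Of 34 genes 1 was called higher (2.94%, near the 2.28% of all genes tested), the acetylase KAT6B, with 818, 517 and 406 normalised counts in inputs against 4566, 1312 and 2287 in ORC1 IPs. Its groups did not overlap, and its log2 fold change was 2.10 ± 0.47 (adjusted p = 0.0329). The median over the 34 genes was 0.06. Arginine methylases had 7 of 8 values below 0, from PRMT5 (-0.95) to PRMT10 (0.90). Lysine acetylases had 8 of 10 values above 0, with KAT5 lowest (-0.63), and the 16 deacetylases ran from SIRT6 (-0.91) to HDAC2 (1.07) with a median of 0.10. No test of a difference between these lists and the lysine methylases and demethylases was made.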

How the data were processed

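Native ORC1 RIP-seq of HCT116 nuclei gave 3 input and 3 ORC1 IP libraries. Reads were processed by the authors with Trimmomatic, STAR (hg19) and featureCounts. They deposited a signal, which is gene counts divided by a size factor per library from DESeq2. The sources used here do not say whether counting used the strand, so overlapping genes, antisense genes and near-identical copies have uncertain counts. The authors' deposited log2 fold changes, scores and p-values were not used.

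Whole reads were recovered for 100% of values (tolerance 0.001). The main test was limma 3.58.1 in R 4.3.3 (intensity trend) on log2(normalised count + 1), which understates changes of low genes, for genes with a mean of at least 10, with Benjamini-Hochberg adjustment. On recovered reads edgeR 4.0.16 called 425 genes higher and 216 lower; DESeq2 1.42.0 was another alternative. The limma code was tested on simulated data. No library repeated another of its group (chi-square per degree of freedom of 49.5 to 676). Other alternatives were the pseudocount, the filter, the scaling, a replicate block, a correction for length and GC content, and leaving out each library.

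The labels give each input and ORC1 IP a replicate number. The deviation of an input from the input mean and that of the ORC1 IP with the same number from the ORC1 IP mean correlated at -0.32, -0.24 and 0.22 for numbers 1, 2 and 3 over 16513 genes.

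Transcript length, GC content, sequences and coordinates are from GENCODE v44 (GRCh38), matched by Ensembl identifier, since the files use hg19. Primer sequences are from the supplement of the study.

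Members and lists were chosen with earlier results of these data known. Named genes were all KMT2 genes, all H4K20 methylases, every called gene, the 10 largest and 5 lowest log2 fold changes, the gene nearest 0, and the called, highest and lowest genes of each partner list. The H3K9, H3K36 and H3K79 methylases, SETD1A, SETD1B, KDM1A, PHF8, KDM6A and others named beside them were added after their values were seen.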

Additional observations from a re-analysis of the deposited data

How the results depend on the processing

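The count of members called higher, 7 in the main test, was 4 with total count scaling (3 of the 7 and KMT2A), 3 in limma without trend (all among the 7), 14 in DESeq2 (the 7 and 7 others), 1 with the GC and length correction and 0 with that correction and a replicate block (limma; 0 genes of all tested were called higher there). Leaving out 1 library gave 0 to 23 calls. The replicate block alone gave 5 calls in limma, losing SETD2 and SETD5, and changed no other call of the 7. The 14 members past the threshold of the study on limma values became 19 in edgeR and 21 in DESeq2, and ran from 10 to 26 without 1 library. The 1 lower member became 0 with a pseudocount of 5, with TMM and in edgeR with a replicate block, and 0 to 2 without 1 library. The 1 called partner became 0 with the filter at 50, with total count scaling and without trend. It also became 0 with the GC and length correction (0 with the block added). The count of partners was 7 in DESeq2 (7.67% of all genes tested) and 2 in limma with a replicate block (2.62%). Leaving out 1 library gave 0 to 10, the 10 being without ORC1 IP 2 (11.9% of all genes tested). The median input level per kb was 452 with the median transcript length in place of the longest, and the order of the levels changed with it. Directions turned in KDM8 with total count scaling (-0.15), in SETD9 in edgeR (0.083) and DESeq2 (0.050), and in RCOR2 with total count (-0.20) and upper quartile scaling (-0.019). Without 1 library, log2 fold changes ran from -0.23 to 0.23 in KDM8, -1.36 to 0.061 in SETD9, -0.028 to 0.43 in SUV420H2, -1.27 to 0.29 in SETD5-AS1, -0.10 to 0.12 in RCOR2 and -0.86 to 0.26 in TRIM28. The cause of these changes was not tested. Genes under 100 reads in a library are limited by depth.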
